A study of Mus musculus with 84 samples.

Results

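The imprinted growth regulators H19, Igf2, Meg3, Dlk1, Peg3, Mest, Cdkn1c, Igf2r, Grb10 and Plagl1 were followed through the reprogramming of mouse fibroblasts toward pluripotency. They were chosen by symbol as textbook imprinted genes that act on growth, and all 10 had a row among the 18909 genes counted. Transcripts were measured by single-cell tagged reverse transcription (STRT) sequencing, which reads tags from the 5′ end of mRNA, in 30 libraries that form 10 groups of 3 replicates. The study asked how a constitutively active form of Smad3, a transcription factor downstream of the TGF-β receptor, changes the path from mouse embryonic fibroblasts (MEF) to induced pluripotent cells. Its reprogramming cells were transgenic MEFs taken from chimeric embryos made with the TNG MKOS embryonic stem cell line. In this line doxycycline switches on a joint transgene for the factors c-Myc, Klf4, Oct4 and Sox2 together with mOrange, and GFP reports Nanog.

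The transgenic MEFs were a minority in a culture of wild-type MEFs and received a retroviral vector for either blue fluorescent protein (Cont) or the active Smad3 (+Sm3CA). Both series were kept in embryonic stem cell medium with LIF, vitamin C and doxycycline at 300 ng/ml, and sorted cells were taken after 3, 6, 8 or 10 days. The MEF group was fibroblasts that were not reprogrammed, grown without LIF and with FGF2 and heparin, and the ESC group was mouse embryonic stem cells. MEF and ESC were therefore not treated like the reprogramming cultures, and vector, medium, sorting and cell state cannot be told apart when they are set against them. All 10 groups had the 129 strain background, so the reads do not separate the maternal from the paternal allele, and every level below is the sum of both. The labels give 2500 cells per sample, and the methods of the study give 500.

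Imprinted genes are transcribed mainly from the allele inherited from a given parent, under the control of DNA methylation laid down in the germ line. In mouse, several paternally expressed genes, such as Igf2, Dlk1, Peg3 and Mest, promote fetal growth, whereas maternally expressed genes, such as H19, Igf2r, Grb10 and Cdkn1c, tend to restrain it. Many of them are highly expressed in embryonic mesenchyme and decline after birth, and the Dlk1-Meg3 region is known for loss of Meg3 in some induced pluripotent cell lines.

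Libraries held 1008596 to 2296059 reads with a median of 1602511, and +Sm3CA day 10 was the shallowest group at 1008596, 1012324 and 1349752 reads in its libraries put in order. Levels below are normalised read counts, that is reads divided by a DESeq2 size factor of the library, and a ± after a mean is the SD over the 3 libraries of a group. Reads were amplified by PCR and were not counted as molecules, so the Poisson intervals given for low counts cover counting error only. The 5′ tags are counted per transcript and not per length. Tests compare groups, and levels of different genes are set beside each other only to name the most abundant of a list.

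ESC replicate 2 stood apart from the other ESC libraries. Its Pearson correlation with ESC replicates 1 and 3, over log2 values of 6584 genes, was 0.882 to 0.896, whereas the other 28 pairs within a group gave 0.929 to 0.974, and ESC replicates 1 and 3 gave 0.959. In replicates 1, 2 and 3, the pluripotency factor Nanog was at 299, 21.7 and 285, and the imprint-protecting zinc finger gene Zfp57 at 164, 12.6 and 193. The pluripotency marker Dppa5a was instead higher in replicate 2, at 26857, 48415 and 23195. Fold changes of the 10 genes and counts of the other lists against ESC are therefore also given without this library, which for the other lists was chosen after seeing the data.

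Smad3 reads, which come from the endogenous gene and the vector together, checked the labels of the +Sm3CA series. On day 3 Smad3 was at 184, 89.0 and 126 in +Sm3CA and at 18.7, 5.19 and 8.94 in Cont, and on day 10 at 47.7, 32.8 and 44.3 and 14.8, 21.5 and 25.4. Every +Sm3CA library lay above every Cont library of its day on all 4 days. The log2 fold change was 3.53 ± 0.34 on day 3 (edgeR adjusted p = 1.51e-08), 2.02 ± 0.33 on day 6 (adjusted p = 0.00459) and 3.11 ± 0.37 on day 8 (adjusted p = 2.38e-06). On day 10 it was 1.00 ± 0.36 and missed the threshold (edgeR adjusted p = 0.12). The interaction of vector and day was -2.54 ± 0.51 for day 10 minus day 3 (edgeR adjusted p = 0.00585).

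Marker genes checked the labelled cells. The summed level of 6 fibroblast markers (Col1a1, Col1a2, Col3a1, Thy1, Postn and Twist1) was 4437 ± 806 in MEF and 5.51 ± 4.73 in ESC, where Col1a2 and Col3a1 had no read. Over days 3, 6, 8 and 10 it was 422 ± 95.7, 333 ± 56.2, 734 ± 123 and 1221 ± 551 in Cont. In +Sm3CA the same sum was 464 ± 79.9, 339 ± 71.2, 794 ± 159 and 655 ± 122. The mean of this sum was thus lowest on day 6 in both series and higher on days 8 and 10. Day 3 and day 6 libraries overlapped in both. Col1a2 was the most abundant of these markers in each of these groups but +Sm3CA day 10, where Col3a1 was, and ESC, where Twist1 was. The fibroblast markers did not move together. In +Sm3CA, Col1a2, Col3a1 and Postn had higher means on day 10 than on day 3 (224, 294 and 52.3 against 181, 80.3 and 4.44). Those of Col1a1, Thy1 and Twist1 were lower (74.4, 6.62 and 2.70 against 173, 16.3 and 9.88). The median log2 fold change of the list from day 3 to day 10 was -0.45 in +Sm3CA and 1.04 in Cont. The 6 pluripotency markers (Nanog, Zfp42, Esrrb, Dppa5a, Tdgf1 and Utf1) summed to 10.4 ± 1.53 in MEF and 37509 ± 13781 in ESC, with Dppa5a the most abundant in both. Their sum was 29.7 ± 7.31 on day 3 and 606 ± 275 on day 10 in Cont, and 21.6 ± 4.36 and 1362 ± 661 in +Sm3CA. On day 10 Dppa5a made up most of both sums, at 381 ± 190 in Cont and 968 ± 556 in +Sm3CA. Zfp42 was at 117 ± 42.5 and 238 ± 62.6, and Nanog at 16.6 ± 5.74 and 18.5 ± 8.82. Day 10 libraries of both series held reads of fibroblast and of pluripotency markers, the latter far below the sum of ESC, and whether the same cells carried both cannot be told from bulk samples.

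Markers of other cells were read in the same way. Macrophage markers (Ptprc, Csf1r, Cd68, Cd14 and Lyz2) summed to 1109 ± 701 in MEF. On days 3 and 10 the sum was 787 ± 379 and 1842 ± 1082 in Cont, and 417 ± 176 and 1111 ± 373 in +Sm3CA. In ESC it was 21.8 ± 11.2, where Cd68 made up most of the sum and Ptprc, Csf1r and Cd14 had no read. Outside ESC, Lyz2 made up nearly all of the sum, at 1036 in MEF and 1733 in Cont day 10. From MEF to Cont day 3 edgeR called Csf1r and Cd68 lower (log2 fold changes -2.88 and -1.02). Lyz2, Ptprc and Cd14 did not pass on that step (-0.33, -0.19 and -1.06). Cont day 10 replicate 1 was low in both the macrophage sum, at 595 against 2533 and 2397 in replicates 2 and 3, and the fibroblast sum, at 585 against 1563 and 1516. Epithelial markers (Cdh1, Epcam, Krt8 and Krt18) summed to 65.2 ± 20.9 in MEF, 169.6 ± 12.9 in Cont day 3, 833 ± 81.3 in Cont day 10, 875 ± 19.2 in +Sm3CA day 10 and 326 ± 56.2 in ESC. They were led by Krt18 in MEF, by Cdh1 in ESC and by Krt8 in the reprogramming groups, and did not move together. From MEF to Cont day 3 edgeR called Cdh1, Epcam and Krt8 higher and Krt18 lower (log2 fold changes 4.15, 6.35, 6.05 and -2.42). From Cont day 10 to ESC it called Epcam higher (0.91) and Krt8 and Krt18 lower (-6.33 and -1.94), while Cdh1 did not pass (0.10). Skeletal muscle markers summed to 55.4 ± 13.8 in MEF and 0.304 ± 0.527 in ESC, with Myog at 0 in every group but MEF and no read of the list in +Sm3CA day 10. Sums of endothelial markers stayed between 5.69 ± 1.27 in Cont day 6 and 24.5 ± 5.93 in Cont day 10. Of these markers, Tek had no read in MEF, was at 8.25 ± 2.65 in Cont day 3 and was called higher there (edgeR adjusted p = 2.97e-05). Sums of neural markers, led by Tubb3 outside MEF, ran from 106 ± 39.8 in ESC to 537 ± 91.7 in +Sm3CA day 3, where Tubb3 alone was at 499. The neural markers did not move together. From MEF to Cont day 3 edgeR called Tubb3 higher and Nes lower (log2 fold changes 3.32 and -3.21). Map2 and Pax6 did not pass on that step, and Sox1 was not tested. Of the trophoblast markers, only Elf5 and Gcm1 had a row, and their sum was highest in +Sm3CA day 10 at 10.4 ± 1.14, all of it Elf5. Endoderm and liver markers were low except for Ttr, and their sum reached 896, 117 and 103 in the libraries of Cont day 8 and 355, 0 and 0 in those of +Sm3CA day 10. What part cells of other types have in the levels of the imprinted genes was not tested, and fewer cells expressing a gene and less RNA per cell cannot be told apart in these bulk samples.

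Of the 10 genes, 9 passed the filter on low counts when MEF or ESC entered the fit, and 8 when only the 24 reprogramming libraries did. Dlk1 passed in neither, and Cdkn1c passed only with MEF and ESC. From MEF to ESC, edgeR called 1 gene higher and 6 lower at an adjusted p under 0.05, where 23.5% of all 8798 genes tested were called higher and 28.8% lower. From MEF to Cont day 3 it called 1 higher and 7 lower (22.6% and 20.9% of 10979 genes). From Cont day 10 to ESC it called 4 higher and 4 lower (21.5% and 30.3%), and from +Sm3CA day 10 to ESC 1 higher and 4 lower (18.6% and 27.2%). These comparisons share the MEF, the ESC or the Cont libraries. The calls of 7 of 9 genes lower on day 3 and 6 of 9 lower in ESC, both against MEF, exceed those shares, but the genes were chosen with such results known and nothing particular to them is read from it. The median log2 fold change of the tested genes was -2.77 on that step, against 0.00 over all genes tested, and -1.91 from MEF to ESC, against -0.07.

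Within the reprogramming series the counts were smaller. From day 3 to day 10, edgeR called 3 genes higher and 1 lower in Cont (13.6% and 11.6% of 10237 genes) and 4 higher and 2 lower in +Sm3CA (17.6% and 16.2%). An F-test over the 4 days called 4 of 8 genes in Cont, against 26.9% of all genes, and 6 of 8 in +Sm3CA, against 40.2%. Between +Sm3CA and Cont it called 0 of 8 genes on day 3 (0.0195% of all genes higher, 0% lower), day 6 (0.00977% and 0%) and day 8 (0.381% and 0.654%). On these days 1, 1 and 2 of the 8 genes had an unadjusted p under 0.05, against 5.11%, 4.16% and 15.2% of all genes, which is too few genes to set apart from these shares, and DESeq2 called 0 on each. On day 10 edgeR called 1 gene, Peg3, higher (0.830% higher and 2.74% lower among all genes), DESeq2 called 0, and 2 genes had an unadjusted p under 0.05 (15.9% of all genes). The interaction of vector and day, day 10 minus day 3, called 0 of 8 genes by edgeR (0.107% and 0.899% of all genes) and 0 by DESeq2, with 1 gene at an unadjusted p under 0.05 (12.1% of all genes).

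**Figure D1:**
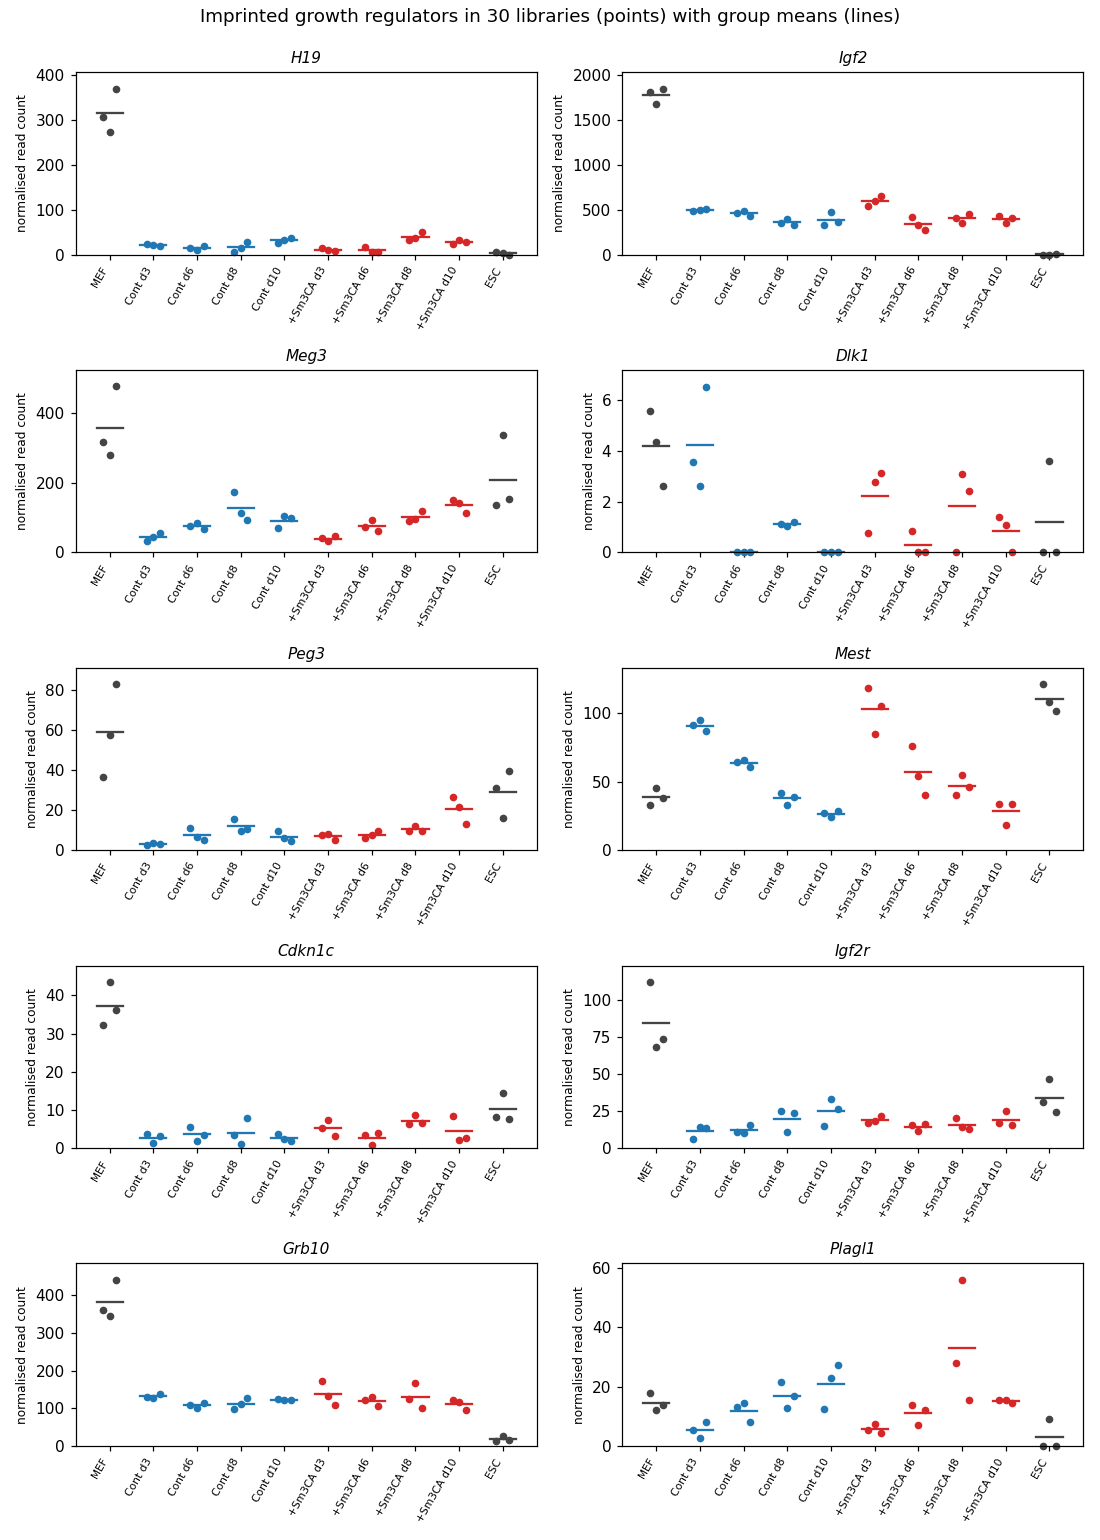
Normalised read counts of the 10 imprinted growth regulators, with 1 panel per gene, the 10 groups along the x axis and the count on a linear y axis that differs between panels. Points are libraries (3 per group) and lines are group means, in grey for MEF and ESC, blue for Cont and red for +Sm3CA. Igf2 lies between 1684 and 1844 in MEF and between 0.913 and 7.72 in ESC, while Mest is lower in MEF than on day 3.

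Igf2 encodes insulin-like growth factor 2, a fetal growth ligand, and lies at chr7:142650766-142666816 (GRCm38, minus strand). It was at 1816, 1684 and 1844 in the MEF libraries, at 492, 496 and 504 in Cont day 3, at 332, 479 and 362 in Cont day 10 and at 0.913, 1.81 and 7.72 in ESC. In +Sm3CA it was at 539.6, 601 and 657 (day 3), 423, 336 and 269.9 (day 6), 413, 350.5 and 456 (day 8) and 432, 353 and 406 (day 10). MEF libraries were above every other library, ESC libraries were below every other library, and the reprogramming groups lay between, with overlaps from Cont day 6 downward. Against MEF, Igf2 fell on day 3 of Cont by a factor of 3.58 (log2 fold change -1.72 ± 0.21, edgeR adjusted p = 4.10e-09). In ESC it was at 8 reads over 3 libraries (95% Poisson interval 3.45 to 15.8), of which 6 came from replicate 3, against 5320 reads in MEF. The log2 fold change from MEF to ESC was -8.98 ± 0.55 (edgeR adjusted p = 4.59e-09), and -8.75 without ESC replicate 2.

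Day 10 libraries still held most of the day 3 level of Igf2. The Cont means were 497 ± 6.13, 462 ± 27.2, 361 ± 35.7 and 391 ± 77.7 over the 4 days in order, and the log2 fold change from day 3 to day 10 was -0.36 ± 0.17 (edgeR adjusted p = 0.110). Without Cont day 10 replicate 2, the highest of its group, it was -0.55 and passed (edgeR adjusted p = 0.0354). In +Sm3CA Igf2 fell from day 3 to day 10 by 0.59 on the log2 scale (SE 0.17, edgeR adjusted p = 0.00629). The F-test over the 4 days passed in +Sm3CA (edgeR adjusted p = 0.00124) and not in Cont (0.0768, but 0.0311 with DESeq2 and 0.0369 in the fit of the Cont groups alone). The lowest mean of +Sm3CA was on day 6, and the difference between the series in this change was not resolved (interaction -0.23 ± 0.24, edgeR adjusted p = 0.779). From day 10 to ESC the log2 fold change was -6.81 ± 0.35 against Cont and -6.87 ± 0.35 against +Sm3CA (edgeR adjusted p = 2.20e-20 and 3.67e-20), and -6.57 and -6.65 without ESC replicate 2. The antisense row Igf2os held at most 2 reads in any group. The strand use of the deposited counting is not stated, so reads of overlapping and antisense genes cannot be assigned with certainty.

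H19, the maternally expressed non-coding RNA of the same cluster, lies at chr7:142575529-142578143 (minus strand). Its counts were 307, 272 and 368 in MEF, 23.2, 22.1 and 18.7 in Cont day 3, 13.8, 11.5 and 19.3 in Cont day 6, 5.66, 14.8 and 28.0 in Cont day 8 and 25.9, 32.3 and 36.8 in Cont day 10. In +Sm3CA they were 14.6, 10.2 and 7.30 (day 3), 16.2, 6.99 and 6.75 (day 6), 32.8, 36.8 and 50.05 (day 8) and 23.8, 32.8 and 27.3 (day 10). In ESC they were 5.48, 3.61 and 0, from 8 reads in all (95% Poisson interval 3.45 to 15.8). MEF libraries were above all others, and ESC libraries were below those of each reprogramming group, the closest being Cont day 8 replicate 1. H19 fell by a factor of 14.8 from MEF to Cont day 3 (log2 fold change -3.77 ± 0.33, edgeR adjusted p = 2.03e-12). Igf2 fell by a smaller factor on the same step, but the difference between these genes was not tested. From MEF to ESC the log2 fold change of H19 was -6.54 ± 0.53 (edgeR adjusted p = 5.30e-08; -6.51 without ESC replicate 2). Against ESC, day 10 levels were higher, with log2 fold changes of -3.22 ± 0.52 for ESC over Cont and -3.08 ± 0.54 for ESC over +Sm3CA (edgeR adjusted p = 1.98e-06 and 8.80e-06), and -3.21 and -3.09 without ESC replicate 2.

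Over the days, H19 rose in +Sm3CA from day 3 to day 10 (log2 fold change 1.36 ± 0.40, edgeR adjusted p = 0.00817), with its highest mean, 39.9 ± 9.05, on day 8. In Cont the same step gave 0.57 ± 0.37 (edgeR adjusted p = 0.268). Over the 4 days the F-test gave an edgeR adjusted p of 6.13e-05 in +Sm3CA and 0.0933 in Cont. The day 10 minus day 3 interaction was 0.80 ± 0.55 (edgeR adjusted p = 0.613). On day 3 all +Sm3CA libraries were below all Cont libraries, at a ratio of means of 0.502 (log2 fold change -0.96 ± 0.41, edgeR adjusted p = 0.882). On day 8 all +Sm3CA libraries were above all Cont libraries, at a ratio of 2.47 (log2 fold change 1.20 ± 0.35, edgeR adjusted p = 0.0792). The day 8 difference passed without Cont day 8 replicate 3 (log2 fold change 1.93, edgeR adjusted p = 0.0214) and with no filter on low counts (edgeR adjusted p = 0.0343). The change of sign was tested after these values had been seen. The interaction of day 8 minus day 3 was 2.16 ± 0.54 (edgeR adjusted p = 0.106, with 3 genes called among all tested), and an interaction over all 4 days gave an adjusted p of 0.0967, with 75 genes called. The microRNA row Mir675, which lies within H19, held at most 8 reads in a group.

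Igf2r encodes the receptor that binds IGF2 and carries it to the lysosome, and lies at chr17:12682406-12769664 (minus strand). It was at 112, 68.4 and 73.5 in MEF, 6.24, 14.3 and 13.8 in Cont day 3, 14.8, 33.5 and 26.4 in Cont day 10 and 31.1, 47.0 and 24.4 in ESC. In +Sm3CA it was at 16.9, 18.5 and 21.9 on day 3 and 16.8, 25.1 and 15.6 on day 10. MEF libraries were above all others, whereas ESC and day 10 libraries overlapped. Igf2r was lower in Cont day 3 than in MEF by a factor of 7.40 (log2 fold change -2.77 ± 0.36, edgeR adjusted p = 3.58e-08). It was lower in ESC than in MEF (log2 fold change -1.32 ± 0.37, edgeR adjusted p = 0.00688), at -1.51 without ESC replicate 2. Without MEF replicate 1, the highest library, the adjusted p was 0.0541. In Cont it rose from day 3 to day 10 (log2 fold change 1.12 ± 0.39, edgeR adjusted p = 0.0316). This call was lost by DESeq2 (adjusted p = 0.0654), with no filter on low counts (0.0590), and without Cont day 3 replicate 1 (0.192), Cont day 10 replicate 2 (0.176) or Cont day 10 replicate 3 (0.0906). The F-tests over the 4 days did not pass in Cont or in +Sm3CA (edgeR adjusted p = 0.0596 and 0.706). In +Sm3CA the step was 0.04 ± 0.38 (edgeR adjusted p = 0.956), and the interaction was -1.09 ± 0.55 (edgeR adjusted p = 0.426). Against day 10, ESC differed by 0.43 ± 0.36 from Cont and 0.75 ± 0.37 from +Sm3CA (edgeR adjusted p = 0.330 and 0.0955), and by 0.24 and 0.54 without ESC replicate 2. Airn, the antisense RNA that overlaps Igf2r, had 34 reads in MEF, 4 to 11 in each reprogramming group and 0 in ESC.

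Grb10, an adaptor that dampens signalling from the insulin and IGF1 receptors, lies at chr11:11930508-12038683 (minus strand). It was at 359.9, 345 and 439.9 in MEF, 129, 126 and 139 in Cont day 3, 125, 122 and 122 in Cont day 10, 171, 133 and 107 in +Sm3CA day 3, 121, 117 and 95.1 in +Sm3CA day 10 and 11.9, 25.3 and 15.4 in ESC. There were 3 separate levels. MEF was highest, all 8 reprogramming groups overlapped with their neighbours between means of 108 ± 6.84 and 137 ± 32.1, and ESC was lowest. The log2 fold change was -1.42 ± 0.21 from MEF to Cont day 3 (edgeR adjusted p = 3.20e-07) and -4.49 ± 0.38 from MEF to ESC (edgeR adjusted p = 8.08e-08; -4.74 without ESC replicate 2). Against day 10, ESC stood at -2.88 ± 0.27 for Cont and -2.76 ± 0.28 for +Sm3CA (edgeR adjusted p = 6.48e-12 and 3.74e-11), and -3.11 and -3.02 without ESC replicate 2. The steps from day 3 to day 10 were -0.12 ± 0.19 in Cont and -0.31 ± 0.19 in +Sm3CA, and neither passed (edgeR adjusted p = 0.704 and 0.223). Over the 4 days the F-tests gave adjusted p-values of 0.562 and 0.511 by edgeR.

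Cdkn1c encodes p57KIP2, an inhibitor of cyclin-dependent kinases, and lies at chr7:143458339-143461050 (minus strand). It was at 32.2, 43.4 and 36.3 in MEF, 3.57, 1.30 and 3.25 in Cont day 3, 3.70, 2.39 and 1.88 in Cont day 10, 8.41, 2.18 and 2.60 in +Sm3CA day 10 and 8.22, 14.5 and 7.72 in ESC. MEF libraries were above all others, and the ESC libraries overlapped with Cont day 8 and +Sm3CA days 8 and 10 and were above the other reprogramming groups. In the reprogramming groups the gene had 7 to 32 reads per group. The log2 fold change from MEF was -3.54 ± 0.59 to Cont day 3 and -1.91 ± 0.48 to ESC (edgeR adjusted p = 4.42e-06 and 0.00322), the latter -2.13 without ESC replicate 2. ESC was above Cont day 10 (log2 fold change 1.87 ± 0.69, edgeR adjusted p = 0.0215). That call was lost without ESC replicate 2 (1.65, adjusted p = 0.0677), Cont day 10 replicate 2 (adjusted p = 0.0542) or Cont day 10 replicate 3 (adjusted p = 0.0796). Against +Sm3CA day 10, ESC differed by 1.16 ± 0.65 (edgeR adjusted p = 0.148; 0.91 without ESC replicate 2). Without +Sm3CA day 10 replicate 1, the highest of its group, this was 1.96 and passed (edgeR adjusted p = 0.0481).

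Plagl1, a zinc finger transcription factor that acts on a network of imprinted genes, lies at chr10:13060504-13131694 (plus strand). It was at 17.8, 11.9 and 13.8 in MEF, 5.35, 2.59 and 8.13 in Cont day 3, 13.2, 14.4 and 7.91 in Cont day 6, 21.5, 12.7 and 16.7 in Cont day 8 and 12.3, 22.7 and 27.3 in Cont day 10. In +Sm3CA it was at 5.37, 7.42 and 4.17 (day 3), 13.7, 6.99 and 12.1 (day 6), 27.8, 55.8 and 15.3 (day 8) and 15.4, 15.3 and 14.3 (day 10). In ESC it had 0, 5 and 0 reads, so that its whole signal came from replicate 2, the library that stands apart (95% Poisson interval for 5 reads 1.62 to 11.7). Day 3 libraries were below the MEF libraries and below most later libraries, and +Sm3CA day 8 spread widely. Plagl1 rose from day 3 to day 10 in Cont (log2 fold change 1.86 ± 0.48, edgeR adjusted p = 0.00380). The step was 1.39 ± 0.51 in +Sm3CA (edgeR adjusted p = 0.0313), where the call was lost by DESeq2 (adjusted p = 0.0614), with all 30 libraries in the fit (0.0695) and without each library in turn other than +Sm3CA day 3 replicate 2 (0.0598 to 0.0947). The interaction was -0.47 ± 0.72 (edgeR adjusted p = 0.868). The F-test over the 4 days gave an edgeR adjusted p of 8.96e-05 in +Sm3CA and 0.0174 in Cont. The Cont call was lost with all 30 libraries in the fit (0.0626). It was also lost without the Cont libraries of replicate number 1 (0.0606), 2 (0.152) or 3 (0.0888). On day 8 +Sm3CA was above Cont by 0.99 ± 0.38 with overlapping libraries (edgeR adjusted p = 0.189), and without +Sm3CA day 8 replicate 3 by 1.31 (edgeR adjusted p = 0.0382).

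Against MEF, the Plagl1 fold change was -1.22 ± 0.57 in Cont day 3 (edgeR adjusted p = 0.0802; called by DESeq2 at an adjusted p of 0.0409 and in the fit of these groups alone at 0.0430). In ESC it was -2.61 ± 0.91 (edgeR adjusted p = 0.0235), a call lost by DESeq2 (adjusted p = 0.0685) and without MEF replicate 1 (0.0687), MEF replicate 3 (0.0728), ESC replicate 1 (0.121) or ESC replicate 3 (0.0881). From day 10 to ESC the log2 fold change was -3.20 ± 0.70 against Cont and -2.75 ± 0.73 against +Sm3CA (edgeR adjusted p = 1.93e-04 and 0.00210). Without ESC replicate 2 no read of Plagl1 was left in ESC, and all these comparisons passed (edgeR adjusted p = 1.89e-05, 1.48e-06 and 1.48e-05). The fitted fold change is then no measured size.

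Peg3 encodes a zinc finger protein and is expressed from the paternal allele, and lies at chr7:6703892-6730431 (minus strand). It was at 36.7, 57.5 and 83.0 in MEF, 2.67, 3.89 and 3.25 in Cont day 3, 11.1, 6.70 and 5.27 in Cont day 6, 15.8, 9.50 and 10.7 in Cont day 8 and 9.88, 5.97 and 4.71 in Cont day 10. In +Sm3CA it was at 7.68, 8.35 and 5.22 (day 3), 5.98, 7.76 and 9.45 (day 6), 9.89, 12.3 and 9.69 (day 8) and 26.6, 21.8 and 13 (day 10), and in ESC at 31.1, 16.3 and 39.9. Cont day 3 was the lowest group, MEF and ESC overlapped, and +Sm3CA day 10 was the reprogramming group that overlapped with ESC. The fall from MEF to Cont day 3 had the largest estimate among the 9 genes tested on that step (log2 fold change -4.04 ± 0.47, edgeR adjusted p = 2.34e-09), and it rests on 10 reads in Cont day 3 (95% Poisson interval 4.80 to 18.4). ESC was above Cont day 10 by 2.13 ± 0.45 (edgeR adjusted p = 1.20e-04; 2.44 without ESC replicate 2). It differed from +Sm3CA day 10 by 0.51 ± 0.40 (edgeR adjusted p = 0.297; 0.79 without ESC replicate 2). From MEF to ESC the value was -0.997 ± 0.43 (edgeR adjusted p = 0.0640), -0.69 without ESC replicate 2, and it passed in 4 of 11 alternatives, with all 30 libraries in the fit (adjusted p = 0.0297), with no filter on low counts (0.0439) and without MEF replicate 1 (0.0401) or ESC replicate 3 (0.0473).

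On day 10 all +Sm3CA libraries were above all Cont libraries for Peg3, at means of 20.5 ± 6.91 and 6.85 ± 2.69. This was the only call between the vectors among the 8 genes tested on that day (log2 fold change 1.6 ± 0.47, edgeR adjusted p = 0.0454). It lay close to the threshold, and 4 of 12 alternatives kept it, with adjusted p-values from 0.0310 to 0.212 and fold changes from 1.39 to 1.96. It was lost by DESeq2 (adjusted p = 0.0740), with no filter on low counts (0.0885), with all 30 libraries in the fit (0.0551) and in the fit of the compared groups alone (0.0562). It was also lost without Cont day 10 replicate 2 (0.157) or 3 (0.212), or +Sm3CA day 10 replicate 1 (0.171) or 2 (0.135). From day 3 to day 10 Peg3 rose in +Sm3CA (log2 fold change 1.51 ± 0.45, edgeR adjusted p = 0.00882), and without +Sm3CA day 10 replicate 1 the adjusted p was 0.0538. In Cont the step was 1.02 ± 0.58 (edgeR adjusted p = 0.202), and the interaction was 0.49 ± 0.78 (edgeR adjusted p = 0.874). Cont day 8 held the highest mean of its series, 12 ± 3.37, and the F-test over the 4 days gave an adjusted p of 0.0488 by edgeR in Cont and 0.0176 in +Sm3CA. Once same-numbered libraries were treated as blocks in the fit, the F-test in Cont gave an adjusted p of 0.0569. None of 9 alternatives kept the Cont call (adjusted p 0.0501 to 0.338). The +Sm3CA call was lost without the +Sm3CA libraries of replicate number 1 (0.224) or 2 (0.123) and with no filter on low counts (0.0529).

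Mest, which encodes a protein with a hydrolase fold, lies at chr6:30723547-30748465 (plus strand) and was the gene of the set called higher from MEF to day 3. It was at 33.3, 45.6 and 38.0 in MEF, 90.9, 94.7 and 87.0 in Cont day 3, 64.4, 66.1 and 60.6 in Cont day 6, 41.9, 32.7 and 38.8 in Cont day 8 and 27.2, 23.9 and 28.3 in Cont day 10. In +Sm3CA it was at 118, 84.4 and 105 (day 3), 76.1, 54.3 and 40.5 (day 6), 40.2, 55.1 and 46.0 (day 8) and 33.6, 18.6 and 33.9 (day 10), and in ESC at 121, 108 and 102. Day 3 and ESC libraries were the highest, with overlap between +Sm3CA day 3 and ESC, and Cont day 10 and +Sm3CA day 10 were the lowest. Mest rose from MEF to Cont day 3 (log2 fold change 1.33 ± 0.24, edgeR adjusted p = 2.08e-05). It then fell from day 3 to day 10 in Cont (-1.78 ± 0.25, edgeR adjusted p = 6.84e-07) and in +Sm3CA (-1.85 ± 0.25, edgeR adjusted p = 3.05e-07), with an interaction of -0.07 ± 0.36 (edgeR adjusted p = 0.968). The F-test over the 4 days passed in both (edgeR adjusted p = 1.09e-06 and 1.18e-06). ESC was above MEF (1.51 ± 0.32, edgeR adjusted p = 9.33e-04), Cont day 10 (2.07 ± 0.26, edgeR adjusted p = 9.32e-09) and +Sm3CA day 10 (1.94 ± 0.26, edgeR adjusted p = 6.21e-08). Without ESC replicate 2 these were 1.59, 2.15 and 2.00. Each of these Mest calls was kept in all of its alternatives. Copg2, whose 3′ end overlaps that of Mest on the other strand, had 44 to 94 reads per group, and Mir335, within Mest, had at most 5.

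Meg3, the maternally expressed non-coding RNA of the Dlk1-Dio3 region, lies at chr12:109541001-109571726 (plus strand). It was at 317, 280.1 and 476 in MEF, 33.0, 44.1 and 56.9 in Cont day 3, 75.5, 85.2 and 66.8 in Cont day 6, 174, 112 and 93.7 in Cont day 8 and 71.6, 104 and 98.0 in Cont day 10. In +Sm3CA it was at 40.7, 31.5 and 45.9 (day 3), 72.7, 93.9 and 60.7 (day 6), 90.8, 95.6 and 119 (day 8) and 151, 143 and 115 (day 10), and in ESC at 136, 336 and 154. The day 3 groups were the lowest and were separated from the next groups, and in ESC replicate 2 was more than the other libraries together. Meg3 fell by a factor of 8.01 from MEF to Cont day 3 (log2 fold change -2.88 ± 0.28, edgeR adjusted p = 3.68e-11). It rose again from day 3 to day 10 in Cont (1.01 ± 0.24, edgeR adjusted p = 0.00195) and in +Sm3CA (1.80 ± 0.24, edgeR adjusted p = 3.70e-07), and both calls were kept in all of their alternatives. So were those of the F-test over the 4 days (edgeR adjusted p = 1.09e-04 and 2.64e-06). On day 10 all +Sm3CA libraries were above all Cont libraries (log2 fold change 0.59 ± 0.23), but the difference did not pass (edgeR adjusted p = 0.158). Nor did the interaction (0.79 ± 0.35, edgeR adjusted p = 0.330), for which Meg3 was the gene with an unadjusted p under 0.05.

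The size of the Meg3 differences to ESC changed with replicate 2. ESC was above Cont day 10 by 1.16 ± 0.27 with it and 0.73 without it (edgeR adjusted p = 4.43e-04 and 0.0155). Against +Sm3CA day 10 the values were 0.55 ± 0.27 and 0.10 (edgeR adjusted p = 0.0898 and 0.776), and the difference passed without ESC replicate 1 (adjusted p = 0.0257) or ESC replicate 3 (adjusted p = 0.0380). Against MEF they were -0.80 ± 0.37 and -1.24 (edgeR adjusted p = 0.0761 and 3.52e-05), and the difference also passed with all 30 libraries in the fit (0.0133) and with no filter on low counts (0.0466). Rian, a non-coding RNA downstream of Meg3 at chr12:109603940-109661716, was at 40.0, 68.4 and 32.8 in MEF, 5.35, 6.49 and 8.13 in Cont day 3, 16.0, 25.1 and 10.4 in Cont day 10, 16.8, 16.4 and 27.3 in +Sm3CA day 10 and 62.1, 14.5 and 45.0 in ESC. Like Meg3 it was lower in Cont day 3 than in MEF (-2.66 ± 0.47, edgeR adjusted p = 9.80e-06) and rose from day 3 to day 10 in Cont (1.31 ± 0.46, edgeR adjusted p = 0.0334) and +Sm3CA (1.45 ± 0.45, edgeR adjusted p = 0.0109). In ESC replicate 2 Rian was the lowest of the ESC libraries, whereas Meg3 was the highest.

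Dlk1, a membrane protein with EGF-like repeats that restrains adipocyte differentiation, lies at chr12:109452823-109463336 (plus strand) and was close to the detection limit. It had 5, 4 and 3 reads in MEF, 4, 2 and 8 in Cont day 3, 0, 0 and 0 in Cont day 6, 1, 1 and 2 in Cont day 8 and 0, 0 and 0 in Cont day 10. In +Sm3CA it had 1, 3 and 3 reads (day 3), 1, 0 and 0 (day 6), 0, 5 and 3 (day 8) and 1, 1 and 0 (day 10), and in ESC 0, 2 and 0. MEF and Cont day 3 had the most reads, 12 and 14 (95% Poisson intervals 6.20 to 21.0 and 7.65 to 23.5), and 12 of 30 libraries had none. The groups at 0 allow up to 3.69 reads, and ESC with 2 reads 0.242 to 7.22. The filter on low counts left Dlk1 out of every comparison. With no filter, edgeR called it over the 4 days of Cont (adjusted p = 0.0171) and lower on day 10 than on day 3 of Cont (adjusted p = 0.0358), while DESeq2 called it over the days (adjusted p = 0.0306) and not from day 3 to day 10 (adjusted p = 0.0542). These calls rest on 14 reads on day 3 against 0 on day 10, and neither setting called Dlk1 in any other comparison.

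**Figure D2:**
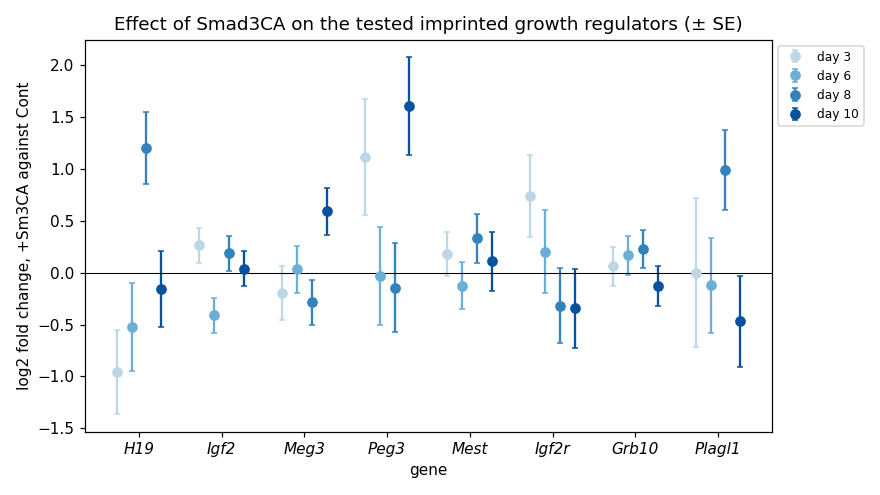
Log2 fold change of +Sm3CA against Cont (y axis) for the 8 imprinted growth regulators tested in the reprogramming series (x axis), in 1 shade of blue for each of days 3, 6, 8 and 10. Points are edgeR estimates and bars are ± SE. H19 lies at -0.96 on day 3 and 1.20 on day 8, and Peg3 at 1.6 on day 10 is the value that passed the threshold.

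Other imprinted genes were read beside these, as a list of 24 paternally and a list of 22 maternally expressed genes with a row. For these lists and those below, the shares of all genes called in each comparison are those given above, and the median log2 fold change of all genes tested was -0.07 from MEF to ESC, 0.00 from MEF to Cont day 3, -0.15 from day 10 of either series to ESC, and 0.09 in Cont and 0.05 in +Sm3CA from day 3 to day 10. Without ESC replicate 2 it was -0.11 from MEF and -0.15 and -0.18 from day 10 of Cont and +Sm3CA to ESC. From MEF to ESC, 13 of the paternally expressed genes were tested, and 5 were called higher and 4 lower by edgeR, with a median log2 fold change of -0.59. Sfmbt2, a Polycomb-related gene, was at 6.82 ± 2.55 in MEF and 75.2 ± 10.3 in ESC (log2 fold change 3.40 ± 0.44, edgeR adjusted p = 9.86e-06), and Ndn was at 100.6 ± 16.6 and 13.7 ± 21.0 (-3.13 ± 0.70, edgeR adjusted p = 0.00134). Airn, at 11.5 ± 1.59 in MEF and 0 in ESC, was at least 9.23-fold lower in ESC, counted against a floor of 3 reads over the group. At the 3.69 reads that the 95% Poisson interval of 0 reads allows, such bounds would be smaller. Nnat was at 19.5 ± 4.61 in MEF and had 1 read in ESC. From MEF to Cont day 3, 2 of 15 were called higher and 5 lower (median -0.36), among them Nnat, at least 19.9-fold lower with no read in Cont day 3, Zdbf2 (-2.10 ± 0.57, edgeR adjusted p = 0.00271) and Sgce (-1.53 ± 0.37, edgeR adjusted p = 7.86e-04). From day 10 to ESC, 6 of 15 were called higher and 2 lower against Cont, and 5 higher and 3 lower against +Sm3CA (medians -0.48 and 0.10). Zdbf2 was at 1.22 ± 1.23 in Cont day 10, 3.93 ± 2.67 in +Sm3CA day 10 and 115 ± 38.1 in ESC, and Impact, a translational regulator, was at 149.9 ± 26.7, 122 ± 21.1 and 609.6 ± 88.3. Peg12 had no read in ESC and was at least 5.97-fold lower there than in Cont day 10 and at least 8.77-fold lower than in +Sm3CA day 10. With ESC replicate 2 left out, 5 were called higher and 4 lower from MEF, 5 and 3 from Cont day 10 and 5 and 4 from +Sm3CA day 10 (medians -0.21, -0.11 and -0.23). Ndn, at 1.83, 37.9 and 1.29 in the ESC libraries, then moved to -5.80 against MEF. From day 3 to day 10, 1 of 11 was called higher and 1 lower in Cont, and 1 higher and 3 lower in +Sm3CA (medians -0.14 and 0.13). Sfmbt2 rose (1.86 ± 0.38 and 3.22 ± 0.39, edgeR adjusted p = 2.87e-04 and 4.57e-08) and the amino acid transporter gene Slc38a4 fell (-0.72 ± 0.19 and -1.03 ± 0.19, edgeR adjusted p = 0.00324 and 4.21e-05).

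Of the maternally expressed list, 11 genes were tested from MEF to ESC, 3 called higher and 3 lower (median -0.14). Phlda2, a restrainer of placental growth that lies near Cdkn1c at chr7:143501545-143503150, had no read in MEF. It was at 55.7 ± 10.2 in Cont day 3, at least 56.9-fold higher, and at 90.7 ± 47.4 in ESC, at least 82.7-fold higher. Osbpl5 was at 42.9 ± 2.81 in MEF and had 1 read in ESC, and H13, a signal peptide peptidase gene, was at 109 ± 14.1 and 12.9 ± 4.99 (-3.02 ± 0.40, edgeR adjusted p = 1.04e-05). From MEF to Cont day 3, 2 of 13 were called higher and 3 lower (median -0.11). Slc22a18, another neighbour of Cdkn1c, had no read in MEF and 3.32 ± 1.50 in Cont day 3, at least 3.18-fold higher. It rose again to day 10 in Cont (3.32 ± 0.46, edgeR adjusted p = 5.85e-07) and +Sm3CA (3.14 ± 0.42, edgeR adjusted p = 3.46e-07), reaching 33.6 ± 3.14 and 40.1 ± 6.96, against 4.08 ± 4.39 in ESC. From day 3 to day 10, 3 of 13 were called higher in Cont and 4 in +Sm3CA, with 0 lower in either (medians 0.09 and 0.47). From day 10 to ESC, 3 were called higher and 4 lower against each series (medians -0.01 against Cont and -0.24 against +Sm3CA), with Cd81 at 1187 ± 31.3 in Cont day 10, 947 ± 68.7 in +Sm3CA day 10 and 281 ± 88.3 in ESC. When ESC replicate 2 was left out, 11 genes from MEF gave 3 higher and 3 lower, and 14 genes from day 10 gave 2 higher and 5 lower against Cont and 2 and 4 against +Sm3CA (medians -0.12, -0.29 and -0.61). Between +Sm3CA and Cont, edgeR called 0 genes of either list on any day.

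A list of 16 other IGF pathway genes was read in the same way. From MEF to ESC, 2 of 13 were called higher and 8 lower, with a median log2 fold change of -2.55, against -0.07 over all genes. Igfbp7, a secreted protein that binds IGFs weakly, was at 472, 469 and 734 in MEF and had no read in ESC, at least 463-fold lower. Pappa, the protease that cleaves IGF-binding proteins, was at 263, 192 and 318 in MEF and had 1 read in ESC. Igf1, the other IGF ligand, was at 78.0 ± 26.4 in MEF, 8.09 ± 1.64 in Cont day 3 and 7.53 ± 12.3 in ESC (-3.66 ± 0.76 from MEF to ESC, edgeR adjusted p = 7.06e-04). Of its 13 reads in ESC, 12 came from replicate 2, and without that library the fold change was -6.81. From MEF to Cont day 3, 1 of 15 was called higher and 6 lower (median -0.65), among them Igfbp7 (-3.92 ± 0.29, edgeR adjusted p = 1.66e-14), Pappa (-3.07 ± 0.34, edgeR adjusted p = 9.62e-10) and Igf1 (-3.10 ± 0.57, edgeR adjusted p = 2.03e-05). From day 3 to day 10, 2 were called higher and 1 lower in Cont and 2 higher and 3 lower in +Sm3CA (medians 0.39 and -0.08), with Igfbp2 higher in both (2.15 ± 0.40 and 2.98 ± 0.40, edgeR adjusted p = 8.58e-05 and 2.90e-07). From day 10 to ESC, 3 were called higher and 7 lower against Cont and 1 higher and 7 lower against +Sm3CA (medians -1.68 and -1.22). Without ESC replicate 2, 2 of 15 were called higher and 10 lower from MEF, 3 and 9 from Cont day 10 and 1 and 8 from +Sm3CA day 10 (medians -3.06, -2.74 and -1.53).

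On day 10, 2 IGF pathway genes were called between the series, both lower in +Sm3CA. Igfbp7 was at 42.1, 40.4 and 32.6 in +Sm3CA and 67.9, 148 and 121 in Cont, and Pappa at 4.21, 5.46 and 6.51 and 25.9, 45.4 and 18.8, with no overlap for either gene. The log2 fold changes were -1.53 ± 0.28 for Igfbp7 and -2.41 ± 0.52 for Pappa (edgeR adjusted p = 6.86e-04 and 0.00346). The interaction with day was -1.79 ± 0.41 for Igfbp7 (edgeR adjusted p = 0.0203). The mean of the fibroblast marker sum was also lower in +Sm3CA than in Cont on day 10, at 655 ± 122 against 1221 ± 551. Here the libraries overlapped, with Cont replicate 1 at 585 below +Sm3CA replicates 1 and 2 at 733 and 717. Of the 6 fibroblast markers 3 were called lower, and the part of this sum in the Igfbp7 and Pappa differences was not tested. Over the other days edgeR called 0 genes of this list between the vectors.

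Factors known to protect, write or erase DNA methylation at imprints formed a list of 13 genes. From MEF to ESC, 10 were called higher and 1 lower (23.5% and 28.8% of all genes), and the median of the list was 2.49, against -0.07 over all genes. Tet1, a methylcytosine dioxygenase, was at 3.58 ± 3.11 in MEF, 29.9 ± 7.84 in Cont day 10, 60.7 ± 27.5 in +Sm3CA day 10 and 629.9 ± 79.6 in ESC. The cofactor of the de novo methyltransferases, Dnmt3l, had 1 read in MEF and was at 0.628 ± 1.09, 6.23 ± 7.34 and 347 ± 64.4 in the later groups. Trim28, the corepressor recruited by ZFP57, was at 139 ± 26.8 in +Sm3CA day 10 and 841 ± 95.9 in ESC (2.58 ± 0.22, edgeR adjusted p = 4.31e-13). From MEF to Cont day 3, 3 of 13 were called higher and 0 lower (median 0.29, or 0.40 with a gene at 0 in a group set to its bound). From day 3 to day 10, 4 of 12 were called higher in Cont and 7 in +Sm3CA, with 0 lower in either (medians 0.49 and 1.02, against 13.6% and 17.6% of all genes called higher). From day 10 to ESC, 9 were called higher and 1 lower against each series (medians 1.65 and 1.30, against 21.5% and 18.6% of all genes called higher). The fits without ESC replicate 2 called 11 higher and 1 lower from MEF, 9 and 1 from Cont day 10 and 8 and 1 from +Sm3CA day 10 (medians 2.97, 2.18 and 1.47). Dppa3, a protector of methylation in the zygote, had no read on day 3 in either series. On day 10 it was at 30.9, 7.17 and 12.2 in Cont and 36.4, 76.5 and 105 in +Sm3CA, the only gene of the list called between the vectors (2.14 ± 0.51, edgeR adjusted p = 0.0122).

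The genes most like the abundant members in pattern were sought over the 10 group means, among 6583 genes with a mean of at least 20. The measure was Pearson's correlation of log2(mean + 1), and Spearman's is given beside it as a description. For Igf2 they were 9530068E07Rik (0.994, Spearman 0.830), Antxr1 (0.994, 0.527) and Arfip1 (0.994, 0.842), and for Grb10 they were Gsn (0.993, 0.697), Fbln2 (0.992, 0.927) and Anxa5 (0.991, 0.891). For Meg3 they were Ube2b (0.984, 0.927), Clasp1 (0.952, 0.939) and Rian (0.952, 0.927), and for Mest Mrps24 (0.959, 0.964), Ddx1 (0.959, 0.939) and Thg1l (0.957, 0.939).

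Promoter sequences of RefSeq (GRCm38.p6) were at hand for 8 of the 10 genes, with 15 promoters in all. Those of Mest, which rose on day 3, and of Meg3, Peg3 and Grb10, which fell, are shown so that genes that moved in opposite directions can be set side by side. Each is the 250 bases before the annotated start, read 5′ to 3′ on the strand of the gene. Of several promoters of a gene, the one with the most CG dinucleotides is shown (for Mest the first of 2 that start 3 bases apart). Mest lies at chr6:30737800-30738049 (plus), Meg3 at chr12:109540746-109540995 (plus), Peg3 at chr7:6730420-6730669 (minus) and Grb10 at chr11:12037421-12037670 (minus). Capitals mark 3 motifs sought on both strands, the GC box GGGCGG, the TATA motif TATAAA and TGCCGC, the letters bound by ZFP57 when methylated.
Mest: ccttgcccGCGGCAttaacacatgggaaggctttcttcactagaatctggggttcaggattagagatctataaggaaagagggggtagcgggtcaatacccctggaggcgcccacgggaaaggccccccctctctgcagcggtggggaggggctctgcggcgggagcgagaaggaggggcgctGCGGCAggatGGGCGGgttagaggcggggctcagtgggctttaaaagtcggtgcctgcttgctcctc
Meg3: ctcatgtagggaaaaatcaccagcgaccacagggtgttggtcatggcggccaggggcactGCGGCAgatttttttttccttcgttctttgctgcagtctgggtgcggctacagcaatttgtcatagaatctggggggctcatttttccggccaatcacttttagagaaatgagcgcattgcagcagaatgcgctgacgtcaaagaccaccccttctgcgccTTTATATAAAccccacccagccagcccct
Peg3: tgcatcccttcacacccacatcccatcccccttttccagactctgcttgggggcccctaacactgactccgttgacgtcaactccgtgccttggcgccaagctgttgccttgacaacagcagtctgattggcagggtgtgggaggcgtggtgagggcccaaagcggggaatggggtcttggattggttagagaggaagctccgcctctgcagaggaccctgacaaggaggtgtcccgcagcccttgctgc
Grb10: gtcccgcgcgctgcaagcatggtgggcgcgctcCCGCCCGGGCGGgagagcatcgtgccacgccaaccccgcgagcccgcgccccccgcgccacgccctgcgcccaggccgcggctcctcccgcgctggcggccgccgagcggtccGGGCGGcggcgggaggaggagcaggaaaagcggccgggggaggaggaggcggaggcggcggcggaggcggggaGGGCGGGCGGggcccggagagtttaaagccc
The Mest promoter shown held 1 GC box and 2 matches of TGCCGC, the Meg3 promoter 2 overlapping TATA motifs, 1 on each strand, and 1 match of TGCCGC, the Grb10 promoter 5 GC boxes, of which some adjoin or overlap, and the Peg3 promoter none of the 3. Among 32851 promoters of the same length, 32.7% held the GC box, 12.4% TATAAA and 8.68% TGCCGC. Other promoters of these genes differed, with 1 GC box and neither of the other motifs for Mest at chr6:30733256-30733505, and none of the 3 for Meg3 at chr12:109545148-109545397 or Grb10 at chr11:12027972-12028221. In the promoters shown, CG dinucleotides numbered 14 in Mest, 10 in Meg3, 8 in Peg3 and 40 in Grb10. A match is a description of the letters, and none of these libraries measured methylation or binding there.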

How the data were processed

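Per the labels, samples were sequenced by STRT in 84 wells, and the deposited values are raw read counts per gene that the authors made, with Bowtie 0.12.9 and mm10 named in the submitters' processing notes, as is DESeq2 1.6.3. Annotation and strand use of the counting are not given in the sources used here. Wells of a replicate were summed to 30 libraries. Counts were tested with edgeR 4.0.16 (R 4.3.3, limma 3.58.1) by quasi-likelihood, with TMM scaling, filterByExpr and Benjamini-Hochberg adjustment over all genes tested (threshold 0.05). MEF and ESC were fitted as 6 libraries, other comparisons with them over all 30, and the remainder over the 24 reprogramming libraries. DESeq2 1.42.0 gave size factors for levels and an alternative test. The fits were tested on simulated data, where the interaction called fewer of the changed genes than the other tests did and missed the first pass criterion, which was then replaced by effect size and false calls, so a gene not called for the interaction may still differ. Positions are from GENCODE (GRCm38) and promoters from RefSeq.

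The text names the 10 genes, Smad3, per list and comparison up to 4 called genes with the largest log2 fold change, markers, and the 3 most like patterns of genes with a mean of at least 50. Members and lists were chosen with earlier results of these data known. The study's methods call the replicates biological, but nothing says that they were separate cultures, so p-values measure the spread between these samples, which may be technical. The labels number the replicates alike over the days of a series. Deviations of same-numbered libraries correlated at -0.250 to 0.228 in Cont (4 of 18 pairs over 0.1) and -0.193 to 0.360 in +Sm3CA (5 of 18), and the block was used as an alternative. Other alternatives were DESeq2 size factors in edgeR, no filter, other sets of libraries in the fit, and each library left out.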

Additional observations from a re-analysis of the deposited data

Results flagged for a closer look

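Some differences between the vectors went opposite ways on different days, with no overlap of libraries. Some courses over the days went opposite ways in the 2 series in every pair of same-numbered libraries. The results below were picked because they met these rules. The share of all genes that meet them is not given, so nothing particular to these genes is read from them. For H19 the ratio of +Sm3CA to Cont means was 0.502 on day 3 and 2.47 on day 8, with no overlap on either day. The interaction chosen after these values were seen missed the threshold (edgeR adjusted p = 0.106 for day 8 minus day 3). From day 8 to day 10 H19 went up in every same-numbered pair of Cont libraries and down in every such pair of +Sm3CA libraries. The log2 ratios of group means differed by -1.48. The Cont libraries of these days overlapped, with day 8 replicate 3 at 28.0 and day 10 replicate 1 at 25.9. For Igf2 the ratio was 1.21 on day 3 and 0.743 on day 6. From day 6 to day 10 its same-numbered pairs went opposite ways, and the log2 ratios of group means differed by 0.45. Peg3 went opposite ways from day 6 to day 10 by 1.57 and from day 8 to day 10 by 1.76 (log2), higher in +Sm3CA. Grb10 differed by -0.30 from day 6 to day 10, and Smad3, which includes the vector, by -2.07 from day 8 to day 10. Libraries of the compared days overlapped in both series for Igf2, in Cont for Peg3 on both steps and in +Sm3CA for Grb10. The F-test over the days did not pass for Grb10 in either series. The Igf2 ratios did not pass on either day. An interaction of vector and day over all 4 days, chosen after seeing the data, passed for Smad3 (edgeR adjusted p = 0.0167) and not for H19 (0.0967), Igf2 (0.352), Peg3 (0.344) or Grb10 (0.861). The steps between the later days were not tested one by one, and libraries of different days are matched by replicate number alone.

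The interaction of vector and day, day 10 minus day 3, was tested and passed by edgeR for Smad3 (-2.54 ± 0.51, edgeR adjusted p = 0.00585), Igfbp7 (-1.79, edgeR adjusted p = 0.0203) and the fibroblast collagen genes Col1a1 (-1.67, edgeR adjusted p = 0.0283) and Col1a2 (-1.30, edgeR adjusted p = 0.0257).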

How the results depend on the processing

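Over the fold changes and tests of genes that passed the filter and that some setting called, 562 of 626 alternative values stayed on the same side of the threshold, 46 lost the call, 18 gained it and 0 turned direction. Of 533 alternative values of fold changes that no setting called, 24 turned direction. Of 100 mean levels, 98 moved by less than the SD under another scaling, and the sets of most similar genes changed by Spearman for 4 of 4 genes. The number of genes called over the days of Cont was 4, and 2 with all 30 libraries in the fit (2 to 2 with the libraries of a replicate number left out). It was 3 with DESeq2 size factors, and 5 by DESeq2 and 4 with no filter, both counting Dlk1 and not Peg3, and with the Cont groups alone it was 4, with Igf2 in place of Peg3. Between the vectors it was 0 on day 8, and 1 with no filter on low counts (0 to 1 with a library left out). On day 10 it was 1, and 0 by DESeq2, with no filter, with all 30 libraries and with the compared groups alone (0 to 1 with a library left out). The cause was not tested. The other counts ranged with a library left out from 6 to 8 (MEF to ESC), 8 to 8 (MEF to Cont day 3), 7 to 8 (Cont day 10 to ESC), 5 to 6 (+Sm3CA day 10 to ESC), 3 to 4 (day 3 to day 10 in Cont), 4 to 6 (the same in +Sm3CA) and 5 to 6 (over the days of +Sm3CA), and over the other alternatives, in the same order, from 6 to 9, 8 to 9, 7 to 8, 5 to 5, 3 to 4, 5 to 6 and 5 to 6.

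When replicate numbers entered the fit as a block, counts were 7 from MEF to ESC, 8 from MEF to Cont day 3, 8 and 5 from day 10 of Cont and +Sm3CA to ESC, 4 and 6 from day 3 to day 10, 0 between the vectors on days 3, 6 and 8, 1 on day 10 and 0 for the interaction. Over the days of Cont the block gave 3 and over those of +Sm3CA 6. Peg3 over the days of Cont was thus the only one of these calls that the pairing changed. Between MEF, ESC and the reprogramming groups, same-numbered libraries correlated at -0.243 to 0.188 and share only a number. Depth limits the genes with few reads, among them Dlk1, Cdkn1c during reprogramming, and H19, Igf2 and Plagl1 in ESC.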
